A study of Mus musculus with 4 samples.

Results

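The Kruppel-like factor genes described here are Klf2, Klf3, Klf4, Klf6, Klf7, Klf9, Klf10, Klf11, Klf13 and Klf16, 10 of the 21900 protein-coding genes of the mouse RefSeq table for GRCm38.p6. They were chosen by the peaks called on them in these same libraries, among them a very wide lysine peak on Klf6, so that whether and how much of each gene was covered is a description and no test. The data are the peak lists of H3K79me2, a dimethyl mark on a lysine within the globular part of histone H3, from chromatin immunoprecipitation and sequencing of dendritic cells grown from bone marrow (BMDCs) of C57BL/6J mice. The cells were given the amino acid lysine at 18 mM for 6 h or PBS, and all were kept in a medium with fetal bovine serum. The labels give no time for PBS and no age, sex or number of mice. The 4 samples are an H3K79me2 and an input library for each condition, and the comparison is between the peak lists of the 2 H3K79me2 libraries.

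With 1 library per condition there is no replicate error to judge a difference by, and every value describes these 2 libraries. The lysine list held 9805 peaks over 5.4 Mb and the PBS list 11926 peaks over 6.78 Mb, and neither gives read totals, so that depth is unknown. Counting the gene body plus 2 kb either side, 34% of all protein-coding genes had a lysine peak and 36.9% a PBS peak. Among 16 dendritic cell markers 7 had a lysine peak and 10 a PBS peak, over 7994 and 10832 bp in all. H2-Aa, Csf2rb, Irf4, Batf3, Ccr7 and Spi1 had none in either library. Of 8 macrophage and monocyte markers 2 had a lysine peak and 6 a PBS peak (1853 and 3194 bp). Of 8 neutrophil markers 2 had a peak in each library (646 and 938 bp). These were Ltf in both, Camp in lysine alone and S100a8 in PBS alone. Of 7 T cell markers only Cd3d had peaks (555 and 519 bp). No peak lay on any of 6 B cell, 6 erythroid or 6 endothelial and stromal markers, and of 8 genes taken as silent Syn1 alone had a lysine peak (376 bp). The part of these other markers in the results below was not tested.

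Kruppel-like factors are transcription factors that bind GC-rich and CACCC sequences through zinc fingers at their C-terminal end. Members such as Klf2, Klf4 and Klf6 can activate genes and act in the differentiation and activation of myeloid cells, Klf3 represses genes through CtBP, and Klf9, Klf10, Klf11, Klf13 and Klf16 recruit the Sin3 corepressor. Many are induced rapidly by growth factors, hormones, cytokines or shear stress. H3K79me2 is laid down by Dot1l and is usually found over the early part of transcribed genes, which is why positions are given here from the start of the gene.

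The window of a gene was its body plus 2 kb either side, and its covered length is the number of bp there under broad peaks. The mark was called on all 10 windows in lysine and on 9 in PBS, with Klf4 the gene without a PBS peak. Over all protein-coding genes 34% of windows had a lysine peak and 36.9% a PBS peak. The 13 lysine peaks covered 14614 bp and the 14 PBS peaks 10805 bp, a lysine to PBS ratio of 1.35. Without Klf6 the lengths were 10495 bp in lysine and 8516 bp in PBS, a ratio of 1.23, whereas the windows of all protein-coding genes together gave 0.829. At least 500 bp were covered in 9 members in lysine and 8 in PBS, with 18.7% and 21.5% of all protein-coding genes reaching that length.

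Covered length was longer in lysine on 7 of the 10 genes and shorter on 3, Klf2, Klf7 and Klf10. Among the 9070 protein-coding genes with a peak in either list, 40.6% were longer and 59.3% shorter in lysine. Differences of at least 500 bp were found on Klf3, Klf4, Klf6, Klf11 and Klf13 (longer) and on Klf10 (shorter). Of the same 9070 genes 6.93% were longer by that much and 14.1% shorter. Lysine minus PBS, the median was 393.5 bp over the 10 genes, 248 bp without Klf6 and -64 bp over the 9070. Since the genes were chosen with these lists known, nothing about the family can be drawn from the distance between those figures. Restricted to peaks of at least 5 in −log10 q, the authors' significance of a peak, the difference without Klf6 turned to -917 bp. Non-coding genes also lie in the windows of Klf3, Klf4, Klf7, Klf9, Klf10, Klf13 and Klf16, and a peak over 2 genes cannot be assigned to either. In a bulk culture, fewer cells carrying the mark and less of the mark per cell cannot be told apart.

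**Figure D1:**
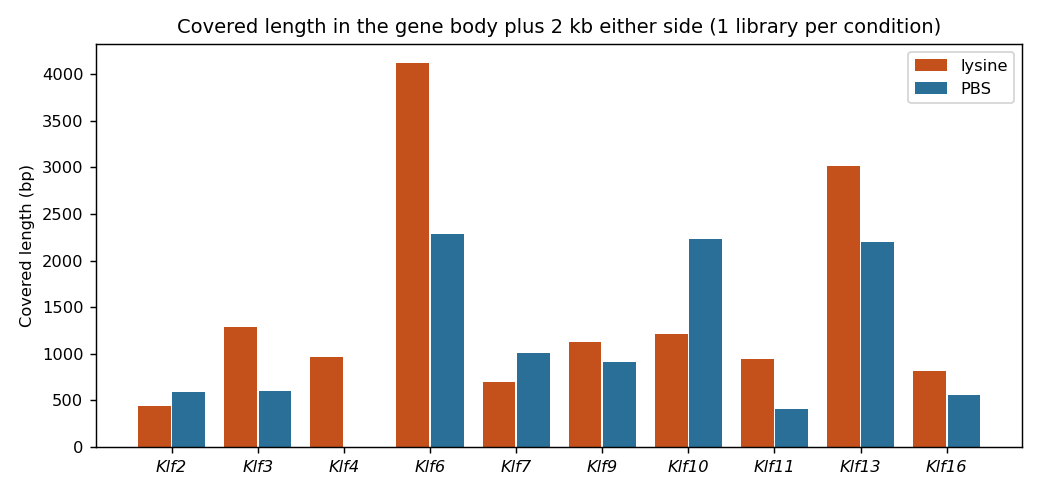
Bars give the covered length in bp of each Kruppel-like factor gene window (body plus 2 kb either side) in the lysine library and in the PBS library, 1 library each, with no error bar because there are no replicates. Klf6 stands highest in lysine at 4119 bp against 2289 bp in PBS, and Klf4 has no PBS bar.

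The promoter lay under a peak in most of the members whose start is known. RefSeq promoter sequences, from 250 bases before the start to 50 after it, were at hand for 8 members. A lysine peak lay on 7 of the 8 promoters and a PBS peak on 6, compared with 26.7% and 28.1% of 17492 protein-coding genes in the promoter table. All 300 bases of the Klf6 and Klf9 promoters were under peaks of both libraries. Lysine peaks also covered all 300 bases in Klf3, Klf11, Klf13 and Klf4, of which PBS peaks covered 281, 284, 257 and 0. In Klf7 the lysine peak covered 89 bases and the PBS peak 257, and the Klf2 promoter was under no peak. The sequences are given 5′ to 3′ on GRCm38.p6. Capitals mark the GC box GGGCGG, the motif CACCC and a loose form of the binding pattern of MEF2 factors (here the MEF2 box). Each was searched on both strands and allowed to overlap. In the MEF2 box only the outer bases were fixed, and those in the middle could be any base.
Klf6 promoter, chr13:5861239-5861538, + strand: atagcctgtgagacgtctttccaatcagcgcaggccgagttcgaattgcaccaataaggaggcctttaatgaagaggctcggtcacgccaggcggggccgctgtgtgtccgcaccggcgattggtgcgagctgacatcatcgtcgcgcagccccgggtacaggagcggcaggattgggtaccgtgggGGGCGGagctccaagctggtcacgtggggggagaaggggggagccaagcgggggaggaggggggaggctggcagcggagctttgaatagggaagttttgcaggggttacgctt
Klf9 promoter, chr19:23140976-23141275, + strand: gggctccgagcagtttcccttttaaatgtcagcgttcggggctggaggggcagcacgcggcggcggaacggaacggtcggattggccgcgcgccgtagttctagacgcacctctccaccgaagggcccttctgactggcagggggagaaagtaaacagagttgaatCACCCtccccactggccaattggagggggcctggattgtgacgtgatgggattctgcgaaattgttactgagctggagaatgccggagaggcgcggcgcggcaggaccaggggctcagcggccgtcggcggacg
Klf3 promoter, chr5:64803271-64803570, + strand: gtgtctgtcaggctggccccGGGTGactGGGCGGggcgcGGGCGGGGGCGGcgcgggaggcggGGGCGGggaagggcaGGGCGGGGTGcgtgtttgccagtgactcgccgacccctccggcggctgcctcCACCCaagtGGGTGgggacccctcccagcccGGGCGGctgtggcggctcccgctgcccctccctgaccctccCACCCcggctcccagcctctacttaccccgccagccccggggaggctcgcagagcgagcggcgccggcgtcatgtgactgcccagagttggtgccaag
Klf11 promoter, chr12:24651121-24651420, + strand: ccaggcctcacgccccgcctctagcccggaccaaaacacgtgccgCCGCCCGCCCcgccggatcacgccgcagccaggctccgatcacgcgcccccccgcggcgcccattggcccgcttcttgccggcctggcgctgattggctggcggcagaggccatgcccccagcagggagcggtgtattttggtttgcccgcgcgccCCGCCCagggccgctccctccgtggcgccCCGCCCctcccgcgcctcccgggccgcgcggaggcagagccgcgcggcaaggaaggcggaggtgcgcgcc
Klf13 promoter, chr7:63938866-63939165, - strand: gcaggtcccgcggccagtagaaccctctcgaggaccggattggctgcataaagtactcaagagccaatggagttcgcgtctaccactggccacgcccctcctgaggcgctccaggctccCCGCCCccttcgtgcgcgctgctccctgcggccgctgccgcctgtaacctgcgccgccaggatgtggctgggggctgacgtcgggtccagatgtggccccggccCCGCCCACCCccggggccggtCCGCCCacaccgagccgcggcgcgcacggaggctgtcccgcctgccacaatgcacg
Klf4 promoter, chr4:55532426-55532725, - strand: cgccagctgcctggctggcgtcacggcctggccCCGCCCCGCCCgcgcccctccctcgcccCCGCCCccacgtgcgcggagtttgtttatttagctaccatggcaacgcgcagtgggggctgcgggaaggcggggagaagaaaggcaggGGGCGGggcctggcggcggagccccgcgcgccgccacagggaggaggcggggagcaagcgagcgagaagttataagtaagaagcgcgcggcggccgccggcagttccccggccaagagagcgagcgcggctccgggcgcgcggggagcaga
Klf7 promoter, chr1:64121340-64121639, - strand: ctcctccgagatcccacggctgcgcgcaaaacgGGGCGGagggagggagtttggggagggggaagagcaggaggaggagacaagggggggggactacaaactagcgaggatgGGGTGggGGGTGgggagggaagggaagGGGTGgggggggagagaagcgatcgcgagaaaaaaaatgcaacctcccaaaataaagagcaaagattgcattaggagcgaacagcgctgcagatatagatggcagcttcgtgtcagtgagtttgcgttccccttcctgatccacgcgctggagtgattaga
Klf2 promoter, chr8:72318812-72319111, + strand: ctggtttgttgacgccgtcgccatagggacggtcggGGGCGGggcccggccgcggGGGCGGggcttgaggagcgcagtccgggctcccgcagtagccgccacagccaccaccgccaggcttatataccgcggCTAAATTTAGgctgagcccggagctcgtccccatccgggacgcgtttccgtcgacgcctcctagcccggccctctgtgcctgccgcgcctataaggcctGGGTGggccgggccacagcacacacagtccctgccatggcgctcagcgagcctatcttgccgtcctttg

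These windows are rich in G and C, from 58.3% in Klf7 to 77.7% in Klf11, where the median was 62.3% over 7253 promoters under a peak of either list and 52.7% over all 32851. The GC box was present in 7 of the 8, with 6 matches in Klf3, 4 each in Klf4 and Klf11 and none in Klf9. It occurs in 70% of promoters under a peak and in 35.7% of all. CACCC, the sequence that Kruppel-like factors themselves bind, was present in Klf2, Klf3, Klf7, Klf9 and Klf13, and in 61.2% of promoters under a peak and 57.5% of all. In Klf3 and Klf13 a CACCC match shares 1 base with a GC box. CCAAT, searched likewise, was found in Klf6, Klf9, Klf11 and Klf13, and in 44.8% and 37.4% of the same sets. TATAAA and TGACGTCA had no match in the 8 sequences. The MEF2 box, searched with any bases in its middle, had its single match in Klf2 as CTAAATTTAG, from -118 to -109. This loose pattern occurs in 2.84% of promoters under a peak and 3.69% of all. These shares count matches with any middle bases, so how common a stricter MEF2 site is was not tested. A MEF2 site in the Klf2 promoter is the textbook target of the Erk5 kinase route.

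Klf6, a rapidly induced activator that promotes inflammatory genes in macrophages (chromosome 13, 5861489 to 5870393), had the most covered length of the family. In lysine it carried a peak of 3751 bp from -381 to 3369 bp relative to its start, and a further 368 bp at 4583 to 4950. The PBS list had 3 peaks there, of 1175 bp from -364 to 810, of 607 bp from 2855 to 3461 and of 507 bp from 4650 to 5156. The wide lysine peak therefore ran across 2 PBS peaks and the 2044 bp between them, and its outer ends lay within 17 and 92 bp of theirs.

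The long lysine peak was the second widest of its list and rank 1002 of 9805 by −log10 q, and the PBS peak at the start was rank 965 of 11926. Inside the broad regions the gapped lists mark narrow blocks, the stretches that pass a stricter threshold. The lysine peak held blocks of 553 bp (-381 to 171) and 494 bp (2876 to 3369), and the PBS peaks held 542 bp (-364 to 177) and 607 bp (2855 to 3461). The blocks thus lay at the same places in both libraries, at the start and about 3 kb into the gene. Counted by blocks, Klf6 had 1415 bp in lysine and 1656 bp in PBS, so that the difference of 1830 bp by broad peaks turned to -241 bp. It also turned, to -189 bp, when peaks less than 2.5 kb apart were joined in both lists, a treatment chosen after the peaks had been seen. Outside the window a PBS peak of 746 bp began 4706 bp past the gene's end, and no lysine peak lay there.

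The genes nearest to Klf6 in covered length over the 2 libraries were the clock gene Per1 (3938 bp in lysine and 2744 bp in PBS), the RNA-binding Rbm47 (3513 and 2565 bp) and Kansl1 (4200 and 3041 bp). The distances were 490, 666 and 756 bp.

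**Figure D2:**
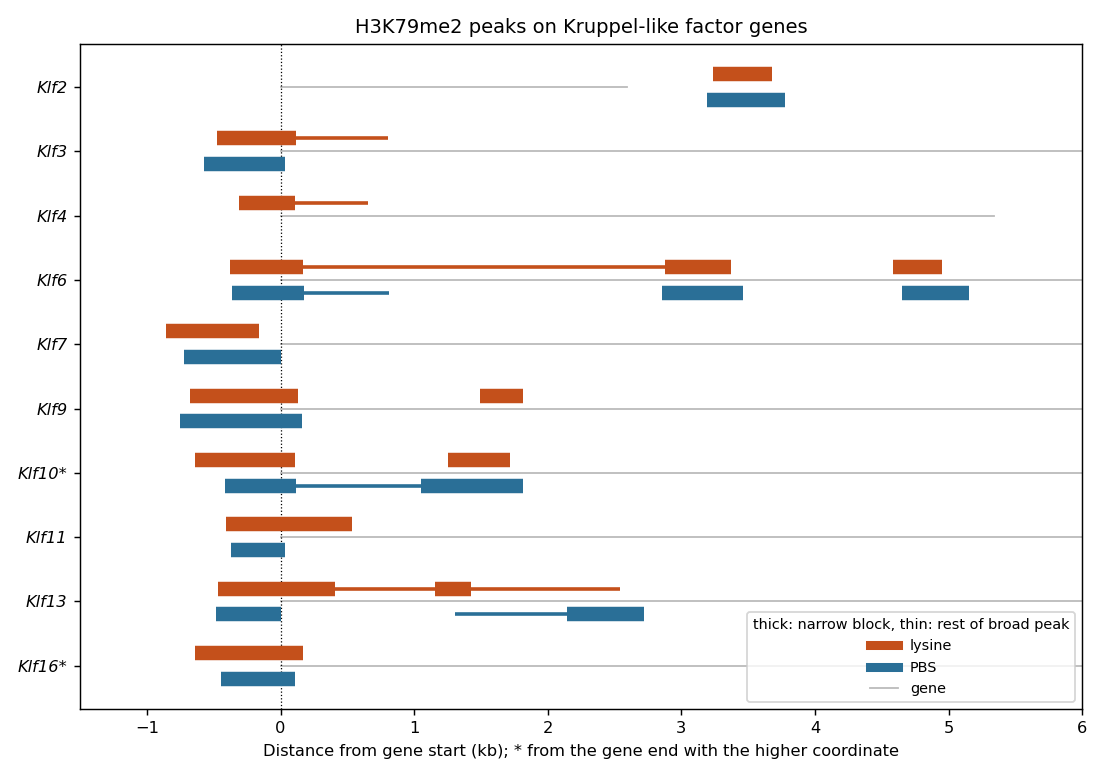
Peaks of the lysine library (upper line of each gene) and of the PBS library (lower line) are drawn by distance in kb from the gene start, or from the higher-coordinate end for Klf10 and Klf16. Thick parts are narrow blocks and thin parts the rest of the broad peak. A single peak spans 2 peaks of the other library on Klf6 and Klf13 in lysine and on Klf10 in PBS. The distant PBS peaks on Klf7 and Klf13 are not drawn.

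Klf13, a Sin3-recruiting factor known as a regulator of Ccl5 in T cells (chromosome 7, 63886351 to 63938915, read from the higher coordinate), showed a similar arrangement. In lysine a single peak of 3013 bp ran from -470 to 2542 bp, the 12th widest of its list. In PBS a peak of 492 bp lay from -485 to 6 and another of 1414 bp from 1307 to 2720, with 1300 bp between them. PBS also had a peak of 296 bp far inside the gene, at 27447 to 27742 bp, among the weakest of its list (rank 11036 of 11926 by −log10 q). The totals were 3013 bp in lysine and 2202 bp in PBS.

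The narrow blocks of Klf13 overlapped at the start, and the second block lay at different places in the 2 libraries. Lysine had 879 bp from -470 to 408 and 277 bp from 1153 to 1429, and PBS had 492 bp from -485 to 6 and 577 bp from 2144 to 2720. By blocks the difference turned from 811 to -209 bp, and it turned to -489 bp with neighbouring peaks joined. The distant PBS peak lies outside E030018B13Rik, the protein-coding gene inside Klf13, and leaving out bases of that gene did not move the difference.

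Klf10, a repressor first known as a gene induced early by TGF-beta (chromosome 15, 38291464 to 38300711), was the reverse case. Lysine had peaks of 747 bp, from -638 to 108 relative to the higher-coordinate end, and of 464 bp from 1254 to 1717. PBS had a single peak of 2228 bp from -415 to 1812, the 66th widest of its list, which ran across the 1145 bp that separated the lysine peaks. The totals were 1211 bp in lysine and 2228 bp in PBS. These were strong peaks within their own lists, the first at rank 215 of 9805 by −log10 q in lysine and the PBS peak at rank 290 of 11926. The PBS peak held blocks of 529 bp (-415 to 113) and 765 bp (1048 to 1812), opposite the lysine peaks. The difference was -1017 bp by broad peaks, -83 bp by blocks, and 128 bp in the other direction with neighbouring peaks joined.

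Such a peak over several peaks of the other list was uncommon. Of all lysine peaks 15 of 9805 (0.153%) overlapped 2 or more PBS peaks, and of all PBS peaks 16 of 11926 (0.134%) overlapped 2 or more lysine peaks. Among peaks of at least 1 kb the shares were 1.8% in lysine and 1.36% in PBS. The windows of Klf6 and Klf13 held 2 of the 15, and that of Klf10 held 1 of the 16. The choice of genes was made by their peaks, the wide Klf6 peak among them. Their share of such peaks is therefore a description and no test. Without Klf6, Klf10 and Klf13 the remaining 7 genes had 6271 bp in lysine and 4086 bp in PBS, with 5 longer and 2 shorter. Of all genes with a peak 40.6% were longer and 59.3% shorter. The 7 were chosen by their peaks too, so that nothing about the family can be drawn from this.

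Klf4, which monocytes need for their differentiation (chromosome 4, 55527137 to 55532475), had a lysine peak of 967 bp from -308 to 658 bp and no PBS peak. The peak was of middle strength, rank 4752 of 9805 by −log10 q, and its narrow block covered 418 bp from -308 to 109. With peaks of −log10 q 5 or more, no peak was left on it in either library. The absence of a peak does not show the absence of the mark, which may be present at a level too low to be called.

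Klf3, the CtBP-binding repressor (chromosome 5, 64803521 to 64832901), had 1282 bp in lysine from -476 to 805 and 601 bp in PBS from -570 to 30. The lysine peak thus reached further into the gene, while by narrow blocks it had 596 bp in lysine and 601 bp in PBS, a difference of -5 bp. The start of Klf3 lies inside the protein-coding gene Gm38457, all of its covered bases are shared with that gene, and neither peak had a −log10 q of 5.

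Klf11, the relative of Klf10 and a Sin3-recruiting repressor (chromosome 12, 24651371 to 24662782), had 947 bp in lysine from -411 to 535 and 408 bp in PBS from -374 to 33. Both peaks were a single narrow block over their whole width, so that the extension past the start in lysine, unlike that of Klf3, was part of the block. Its difference of 539 bp was the same by blocks and with peaks of −log10 q 5 or more. The lysine peak was rank 741 of 9805 by −log10 q and the PBS peak rank 1926 of 11926.

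Klf9, a hormone-induced Sin3-recruiting repressor (chromosome 19, 23141226 to 23168129), had nearly the same peak over its start in both libraries, 807 bp from -675 to 131 in lysine and 916 bp from -755 to 160 in PBS. A weak lysine peak of 324 bp at 1490 to 1813, rank 8797 of 9805, brought the lysine total to 1131 bp against 916 bp in PBS. With peaks of −log10 q 2 or more that peak dropped out and the difference turned from 215 to -109 bp. A lysine peak of 2058 bp ended 4887 bp before the gene, outside the window, where PBS had none. Klf16, another Sin3-recruiting repressor (chromosome 10, 80567121 to 80577296), had 810 bp in lysine and 562 bp in PBS at its higher-coordinate end. The PBS peak lay wholly inside the lysine peak and was the stronger within its list, rank 1846 of 11926 compared with rank 5564 of 9805. With peaks of −log10 q 5 or more PBS alone had a peak, and the difference was -562 bp.

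Klf7, the close relative of Klf6 known for its part in neurons (chromosome 1, 64029448 to 64122345, read from the higher coordinate), had 695 bp in lysine from -856 to -162 and 728 bp in PBS from -721 to 6. Both lay before the start given in the promoter table, save the last bases of the PBS peak, and inside the gene's outer bounds, which reach further. A second PBS peak of 285 bp lay 68957 to 69241 bp into the gene and had no lysine partner. The totals were 695 bp in lysine and 1013 bp in PBS, and with peaks of −log10 q 5 or more the PBS peak at the start was the only one left (728 bp).

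Klf2, which restrains inflammatory activation of myeloid and endothelial cells (chromosome 8, 72319062 to 72321654), differed from the other 9 in position. Its peaks lay past the gene, 646 to 1084 bp beyond its end in lysine (439 bp) and 601 to 1186 bp in PBS (586 bp), and none lay over its body or start. The PBS peak was rank 1082 of 11926 by −log10 q and the lysine peak rank 3354 of 9805. Both were single narrow blocks, and the lysine peak lay wholly inside the PBS peak.

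Peaks lay over the start, or over the higher-coordinate end of Klf10 and Klf16, on 8 genes in each library, not the same 8. Klf4 was covered there in lysine alone and Klf7 in PBS alone. How many of all genes have a peak over their start is not given here. Within 1 kb of the start, or of that end in Klf10 and Klf16, lay 62.3% of the family's covered length in lysine and 58.3% in PBS. For the 8 members with a start in the promoter table the shares were 60.0% in lysine and 53.9% in PBS. Over 14731 protein-coding genes with a single start in the promoter table the shares were 69.7% in lysine and 64.2% in PBS. The peaks of the 2 lists occupied the same ground in part. The 10 windows shared 7975 bp, which is 54.6% of the lysine length and 73.8% of the PBS length, leaving 6639 bp in lysine alone and 2830 bp in PBS alone. Of the 13 lysine peaks 11 overlapped a PBS peak, and of the 14 PBS peaks 12 overlapped a lysine peak. The share of all peaks that overlap the other list is not given here. Whether these counts are usual for the 2 lists is therefore not known.

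By broad peaks, most of the extra length in lysine on the 8 genes whose start is known lay after the start. On these 8 genes 3416 bp upstream of the start were covered in lysine and 3269 bp in PBS, a ratio of 1.04. Downstream of the start the lengths were 9177 bp in lysine and 4746 bp in PBS, a ratio of 1.93, and this ratio was the same without Klf6 (5439 and 2821 bp). With Klf10 and Klf16 added, split at their higher-coordinate end, the ratio was 1.14 upstream (4693 bp in lysine and 4133 bp in PBS) and 1.49 downstream (9921 and 6672 bp). Klf10 went the other way downstream, with 573 bp in lysine and 1813 bp in PBS. The 14731 protein-coding genes gave 0.898 upstream and 0.788 downstream. Klf3 had 806 bp downstream in lysine and 31 bp in PBS, Klf11 had 536 and 34 bp, and Klf9 had 456 and 161 bp. Klf7 had none downstream in lysine and 292 bp in PBS, and Klf2, whose peaks lie past the gene, had 439 and 586 bp. By narrow blocks the downstream lengths were 3381 bp in lysine and 3276 bp in PBS, a ratio of 1.03. The split at the start was made after the peaks had been seen.

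**Figure D3:**
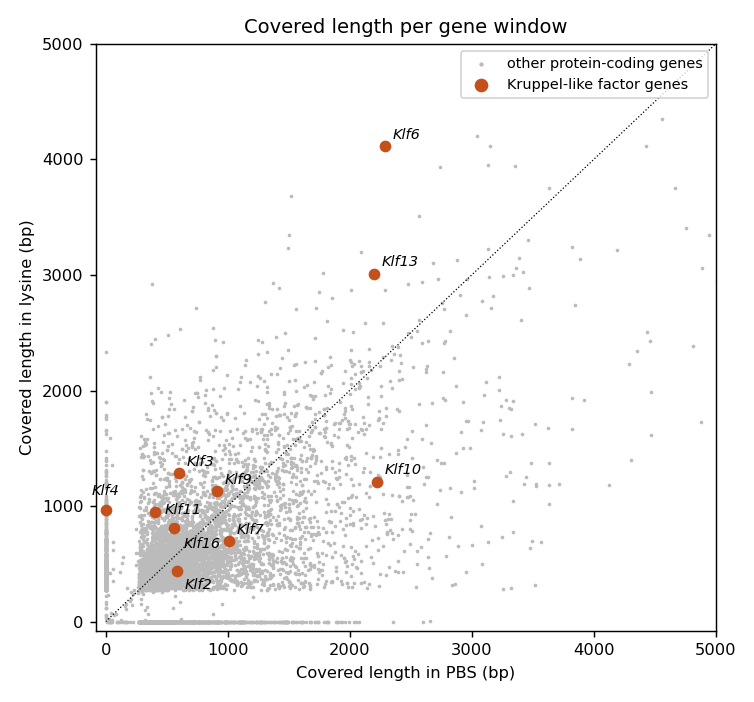
Each point is a protein-coding gene window with a peak in either list, placed by its covered length in bp in PBS (x axis) and in lysine (y axis). The dotted line marks equal lengths, and 12 genes beyond 5000 bp are not drawn. Of the 10 Kruppel-like factor genes 7 lie above the line, Klf6 farthest, and Klf2, Klf7 and Klf10 below it.

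The family's peaks were wider than the middle of their lists. As the genes were chosen by their peaks, a very wide one among them, this is a description and no test. The median width was 807 bp in lysine and 593.5 bp in PBS, while the whole lists had medians of 450 bp in lysine and 456 bp in PBS. In each library 3 peaks of the family reached 1 kb, out of 13 in lysine and 14 in PBS, and 8.52% of all lysine peaks and 9.89% of all PBS peaks did so. By −log10 q 2 of the 13 lysine peaks and 5 of the 14 PBS peaks stood in the strongest 10% of their list.

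**Figure D4:**
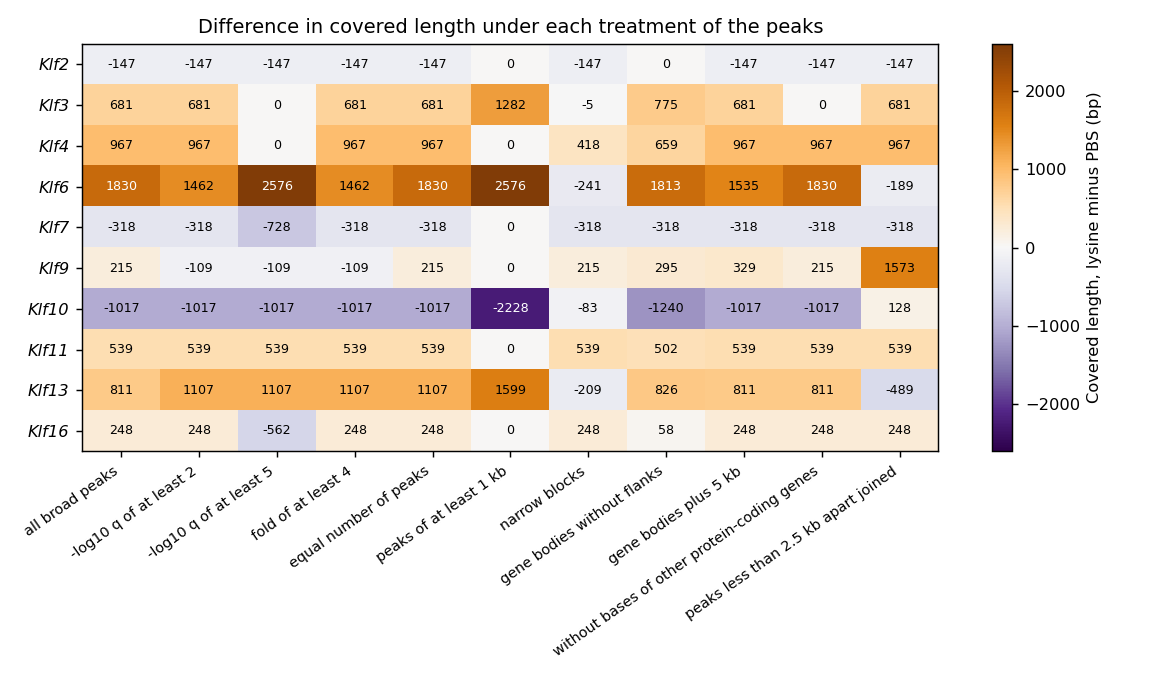
Each cell gives the difference in covered length in bp, lysine minus PBS, of a Kruppel-like factor gene (rows) under a treatment of the peaks or the window (columns), orange for longer and purple for shorter in lysine. Klf11 and Klf4 are longer in lysine or level in every column, Klf7 and Klf2 shorter or level, and Klf3, Klf6 and Klf13 turn by narrow blocks.

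The 7 other Klf genes were not among those chosen by their peaks, so that few peaks on them follow from the choice. In the same windows Klf1, Klf8, Klf12, Klf14, Klf15 and Klf17 had no peak in either library, and Klf5 had 332 bp in lysine and 355 bp in PBS. Over all protein-coding genes 34% of windows had a lysine peak and 36.9% a PBS peak. Of the 9 related Sp genes, whose proteins bind the GC box, Sp1, Sp2, Sp3 and Sp4 had peaks in both libraries and Sp5 to Sp9 had none. Sp2 (1307 bp in lysine and 600 bp in PBS) and Sp3 (1573 and 838 bp) were longer in lysine by at least 500 bp, Sp1 (705 and 1701 bp) was shorter, and Sp4 (1185 and 1164 bp) differed by 21 bp. Of all genes with a peak 6.93% were longer in lysine by at least 500 bp and 14.1% shorter by that much. By any length 40.6% were longer and 59.3% shorter. The median difference over the 9 Sp genes was 0 bp, which the 5 without a peak fix whatever the other 4 are.

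In the route that induces Klf2 and Klf4, the kinases Map3k2, Map3k3 and Map2k5 lead to Mapk7 (Erk5), which activates Mef2 factors. Of its 8 genes 6 had a peak in each library, where 34% of all protein-coding genes had a lysine peak and 36.9% a PBS peak. Of the 6, 2 were longer in lysine and 4 shorter, near the 40.6% longer and 59.3% shorter of all genes with a peak. The median difference over the 8, of which 2 had no peak, was -16.5 bp. Map3k3 had 679 bp in lysine and 1872 bp in PBS and Mef2c 742 and 1686 bp. Mef2a had 1590 and 1140 bp, Mapk7 714 and 597 bp, Mef2d 558 and 591 bp and Map3k2 509 and 670 bp.

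Of 8 genes of the TGF-beta route around Klf10 and Klf11, 7 had a peak in each library, 1 longer in lysine and 6 shorter. A lysine peak lay on 34% of all protein-coding genes and a PBS peak on 36.9%. The median difference over the 8 was -74 bp, with Smad7, which had no peak, counted as 0 bp. The -64 bp over all genes with a peak leaves out genes without one, so that these medians cannot be compared. Of all genes with a peak 40.6% were longer and 59.3% shorter. The receptor-activated Smad3 had 361 bp in lysine and 1051 bp in PBS and Smad2 434 and 969 bp. The partner Smad4 had 412 and 543 bp, the receptor Tgfbr1 609 and 876 bp, and the ligand Tgfb1 1845 and 1647 bp. Smad7, the inhibitor of the route, had no peak.

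Of 13 cofactor genes 7 had a peak in lysine and 9 in PBS, against 34% and 36.9% of all protein-coding genes. Of these cofactor genes 5 were longer in lysine and 4 shorter, where 40.6% and 59.3% of all genes with a peak were. The median difference over the 13, of which 4 had no peak in either library, was 0 bp. Sin3a, the corepressor that Klf9, Klf10, Klf11, Klf13 and Klf16 recruit, had 2990 bp in lysine and 3259 bp in PBS. Ctbp1, the partner of Klf3, had 584 and 384 bp. The deacetylase Hdac1 had 620 and 592 bp, while Hdac2 had no lysine peak and 655 bp in PBS. The acetyltransferase Kat2b had 1420 and 771 bp. The ubiquitin ligase genes Wwp1 and Fbxw7, whose products can mark Kruppel-like factors for degradation, had 369 and 702 bp and 655 and 639 bp.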

How the data were processed

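H3K79me2 and input libraries of BMDCs were read in paired-end mode, per the labels' protocols. Per the submitters' processing notes, the tools were MACS2 2.1.2, Bowtie2 2.3.4.1, Trimmomatic 0.38, cutadapt 1.18, ChIPseeker, Picard and FastQC and the build was GRCm38, with no role or setting stated. A broad and a gapped peak list per H3K79me2 sample were used, and the input libraries were not used here. Calling thresholds and the choice of control are not given in these sources. The files carry no header, and their columns follow the MACS2 broad layout.

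The deposited fold of a peak is a ratio over local background, the deposited −log10 values are those of its p and q, and the deposited score is read as 10 times the −log10 q. The lowest −log10 q was 1.32 in lysine and 1.37 in PBS. These values served to filter or rank peaks within a list. They depend on depth, which is unknown. Blocks of 1 bp in the gapped lists were left out.

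Groups came from the sample titles. Covered lengths were computed with Python 3.11.15, numpy 2.4.6 and pandas 2.3.3, checked against bedtools 2.31.1 with 0 differences. Figures used matplotlib 3.10.9. A peak was shared if it overlapped the other list by at least 1 bp. Gene bounds, starts and sequences came from RefSeq (GRCm38.p6), with all 10 members matched in the gene table and 8 in the promoter table. For Klf10 and Klf16, not in the promoter table, no promoter is shown and positions count from the higher-coordinate end into the gene. The members, gene lists and treatments were chosen with earlier results of these data known. Protein sequences were not used here. All 10 members are named, and of the other gene lists the genes with at least 500 bp covered in either library. That rule was not applied to the cell type markers, which are given mostly as counts.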

Additional observations from a re-analysis of the deposited data

How the results depend on the processing

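No paired analysis was possible because each condition has 1 library, and no replicate could be left out. The total of the 10 genes stayed longer in lysine under all 10 treatments of peaks and windows. Its difference of 3809 bp fell to 1659 bp with −log10 q 5 or more and to 417 bp by narrow blocks. Without Klf6 the difference of 1979 bp turned to -917 bp with −log10 q 5 or more. It was 653 bp with peaks of at least 1 kb, 658 bp by narrow blocks, 1298 bp without bases of other protein-coding genes and 3182 bp with neighbouring peaks joined.

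Genes longer in lysine numbered 3 with −log10 q 5 or more, 3 with peaks of at least 1 kb and 4 by narrow blocks, and genes shorter in lysine numbered 5, 1 and 6 in the same order. Of lysine peaks with a PBS partner 7 of 7 were left with −log10 q 5 or more and 2 of 3 at 1 kb, and of PBS peaks with a lysine partner 7 of 9 and 2 of 3. Downstream of the start of the 8 genes the difference of 4431 bp became 105 bp by narrow blocks and 2470 bp with neighbouring peaks joined. Upstream it was 147 bp, and -762 bp with −log10 q 5 or more, 963 bp with peaks of at least 1 kb, -26 bp in gene bodies alone, 261 bp with 5 kb flanks and 241 bp without bases of other protein-coding genes.

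Of the single genes with differences of at least 500 bp, those that turned were Klf3 (-5 bp), Klf6 (-241 bp) and Klf13 (-209 bp) by narrow blocks, and Klf6 (-189 bp), Klf10 (128 bp) and Klf13 (-489 bp) with neighbouring peaks joined. The cause was not tested. Klf2, Klf4, Klf7 and Klf11 took the opposite sign under none of the 10. Their difference was 0 bp under 2, 2, 1 and 1 of the treatments, in that order. For Klf4 the sign could not turn, since it had no PBS peak under any treatment. Read totals are unknown, so a peak missing from a list may be a matter of depth.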
